A study of Homo sapiens with 12 samples.

Results

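The genes described here mark where a cell stands between an epithelial and a mesenchymal state. They are 2 cadherins (CDH2, CDH5), 3 keratins (KRT7, KRT8, KRT18), vimentin (VIM) and 4 transcription factors of the epithelial-mesenchymal transition, or EMT (ZEB1, ZEB2, SNAI2, TWIST1). These 10 were taken by gene name among the 14029 genes measured, so that all 10 were measured follows from the choice. RNA was taken from cells of the line ES-2, which GEO's labels give as human ovarian cancer, and was selected by its poly(A) tail. The vector group carried the control vector PLKO, and its genotype label is WT. The other group carried a short hairpin RNA (shRNA) against the kinase SRMS, and its genotype label is SRMS knockdown; these are called the hairpin libraries. Both groups compared here, with 3 libraries each, had been given cisplatin, a platinum drug that crosslinks DNA, at 15 µM for 8 hours. No untreated cells enter any comparison, since the 6 PBS samples of the series are not analysed here. The sources used here do not say whether the hairpin cells were 1 clone or a pool, or whether replicates were separate cultures, so p-values measure only the spread between these libraries, which may be technical.

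Epithelial cells are held together by cadherins and braced by keratin filaments, in which a type I keratin (such as KRT18) pairs with a type II keratin (such as KRT7 or KRT8). During EMT, zinc finger and helix-loop-helix factors of the ZEB, SNAI and TWIST families bind E-box sequences in DNA and repress epithelial genes, E-cadherin above all, while vimentin filaments and N-cadherin (CDH2) are gained. Carcinoma lines often hold both sets at once, and CDH5, VE-cadherin, is the junction protein of endothelium that some tumour lines also express.

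Each library held 28009232 to 56855428 reads over the genes listed, recovered as whole reads from the deposited values. The values are a linear signal, reads scaled to a library's effective size as for CPM. SRMS itself, the target, had 2, 14 and 47 reads with the vector against 9, 39 and 27 in the hairpin libraries, which were not lower (limma adjusted p = 0.168), so every direction below is that of the libraries labelled SRMS shRNA and not of a measured loss of SRMS. Replicate 1 stood apart from replicates 2 and 3 in both groups, with a chi-square per gene of 3.55 to 5.07 against 1.65 to 1.79 among genes with 200 to 5000 reads in the pair. Over all genes, 56.8% passed limma's test at an adjusted p under 0.05, 26.6% upward and 30.2% downward in the hairpin libraries, and the groups did not overlap in 62.7%. The median log2 fold change of all genes was 0.0031 as deposited and 0.16 with libraries aligned on their median, so small changes must be read against that shift.

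All 10 genes passed that test, 3 of them upward and 7 downward, beside a background of 56.8%. That background includes genes of low signal. With only the 11353 genes of a mean log2 signal of at least 1 fitted, all 10 among them, 3113 genes were higher and 4100 lower. VIM, KRT8 and KRT18 were higher, and CDH2, CDH5, KRT7, ZEB1, ZEB2, SNAI2 and TWIST1 were lower, where VIM turned slightly negative under quantile scaling (log2 fold change -0.05). The groups did not overlap in any of the 10, beside 62.7% of all genes, and an exact two-sided permutation test of 3 against 3 gave its smallest possible p, 0.1, for each. With replicate 1 of both groups left out, the counts were again 3 and 7, beside 4091 genes higher and 4653 lower of all 14029. Most changes were modest. CDH5 had a log2 fold change of -1.25, a size passed by 93 of 14029 genes, and was the only 1 of the 10 called with an absolute value of at least 1, as were 2.08% of all genes, and the other 9 ran from -0.51 to 0.29. The median over the 10 was -0.28, beside 0.0031 over all genes. In bulk RNA, fewer cells of a kind and less RNA per cell cannot be told apart.

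VIM had the highest level per length of the 10. In the vector libraries its signal per kb of transcript was 2523 ± 153 (mean ± SD, n = 3), which ranked 15 among 14029 genes. KRT18 followed with 560 ± 3.21 per kb and KRT7 with 397 ± 16.2 per kb, while KRT8 had only 43.7 ± 1.04 per kb. The next 3 lay close together, with SNAI2 at 19.0 ± 1.79, CDH2 at 16.4 ± 0.227 and TWIST1 at 14.7 ± 0.663 per kb. The nearest libraries of SNAI2 and CDH2 were closer than the SD of SNAI2. ZEB1 (5.06 ± 0.153), CDH5 (3.68 ± 0.265) and ZEB2 (3.03 ± 0.127 per kb) were lowest, and the nearest libraries of CDH5 and ZEB2, at 3.37 and 3.18 per kb, differed by less than the SD of CDH5. In the libraries labelled SRMS shRNA the order was the same down to ZEB1, with SNAI2 and CDH2 overlapping at 14.3 to 15.7 and 14.5 to 14.7 per kb. There CDH5, at 1.48 ± 0.185 per kb, fell below ZEB2, at 2.12 ± 0.206 per kb. These levels rest on 1 annotated transcript for each gene.

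**Figure D1:**
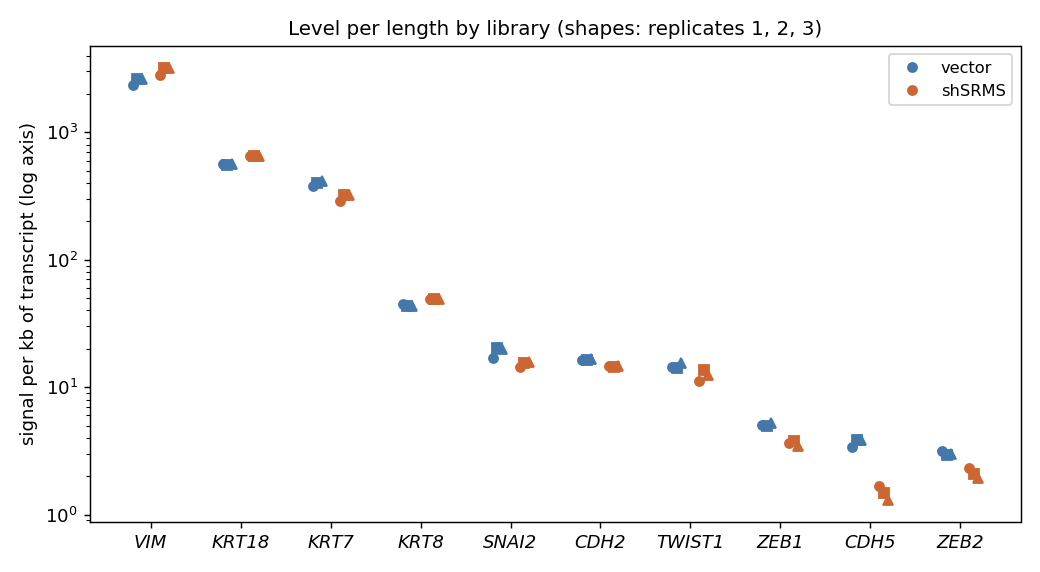
Signal per kb of transcript (log axis) for each gene in each of the 6 libraries, in order of the vector mean; colours are the groups and shapes the replicates. VIM stands far above the rest, with group means of 2523 and 3080 per kb, and ZEB1, CDH5 and ZEB2 lie lowest, with means of 1.48 to 5.06 per kb.

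The cadherins differed in how far they moved. CDH5 (ENSG00000179776) lies on the plus strand of chromosome 16, from 66366622 to 66404786 in GRCh38. Its signal was 13.9, 15.8 and 15.8 in vector replicates 1, 2 and 3 and 6.90, 6.10 and 5.37 in the hairpin ones. Every hairpin library lay far under the lowest vector library, on 168 to 222 reads against 416 to 905. The mean fell from 15.2 ± 1.09 to 6.12 ± 0.763 (n = 3 each), with a log2 fold change of -1.25 (SE 0.098, 95% interval -1.46 to -1.03, limma adjusted p = 4.11e-06).

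CDH2 (ENSG00000170558), N-cadherin, is encoded at 27950966 to 28177446 of chromosome 18 (minus strand). It had signals of 70.3, 71.2 and 72.3 with the vector against 63.5, 62.8 and 63.0 with the hairpin. The replicates were so close that a fall of 11.4% separated the groups. Values varied by 1.38% of the mean with the vector and 0.559% with the hairpin. That is less than the 1.85% and 2.25% that counting reads alone gives, so the spread seen understates the error of counting. The log2 fold change was -0.17 (SE 0.0366, limma adjusted p = 0.0023). It was -0.01 with median scaling (limma adjusted p = 0.754) and -0.02 with the trend on transcript length and GC content taken out (limma adjusted p = 0.738), so the call on CDH2 depended on the scaling. The antisense gene AC110015.1 shares 136 exonic bases with CDH2, and although the library kit was stranded, whether reads were counted by strand is not given in the sources used here.

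Keratins moved apart, with KRT7 lower and KRT8 and KRT18 higher. KRT7 (ENSG00000135480), a type II keratin of simple epithelia, lies on the plus strand of chromosome 12, from 52232520 to 52252186. Its signal was 667, 701 and 724 with the vector against 506, 565 and 560 with the hairpin. Replicate 1 was the lowest of its group on both sides, and the groups stayed well apart. The mean fell from 697 ± 28.5 to 543 ± 32.8, with a log2 fold change of -0.36 (SE 0.0481, 95% interval -0.47 to -0.25, limma adjusted p = 0.000126). KRT7-AS, on the opposite strand, shares 282 exonic bases with it.

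KRT18 (ENSG00000111057), the type I partner, lies on the plus strand of chromosome 12, from 52948871 to 52952901. Signals were 874, 871 and 881 with the vector against 1008, 1020 and 1018 with the hairpin. Within a group its values varied by 0.574% and 0.617% of the mean, about what counting reads alone gives (0.526% and 0.561%). The log2 fold change was 0.21 (SE 0.0296, limma adjusted p = 0.000162), and it was 0.05 with quantile scaling (limma adjusted p = 0.174) and 0.0022 without the length and GC trend (limma adjusted p = 0.956).

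KRT8 (ENSG00000170421), the other type II keratin, is encoded at 52897187 to 52949954 of chromosome 12 (minus strand). It had signals of 95.4, 91.7 and 91.4 with the vector against 105, 105 and 104 with the hairpin. Groups did not overlap, and the log2 fold change was 0.18 (SE 0.0354, limma adjusted p = 0.00173), or 0.05 without the length and GC trend (limma adjusted p = 0.256). Values varied by 2.39% of the mean with the vector, where counting reads alone gives 1.61%. With the hairpin they varied by 0.43%, less than the 1.75% from counting, so the spread there understates the error of counting. KRT8 and KRT18 share 525 exonic bases on opposite strands. The annotation also names 50 pseudogenes of KRT8 and 67 of KRT18, so reads of either can be split among copies and their levels are uncertain.

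The keratin balance shifted with KRT7. Counted per kb, KRT7 and KRT8 together came to 0.76, 0.79 and 0.81 of KRT18 in the vector libraries and to 0.52, 0.57 and 0.56 in the hairpin ones. All vector libraries were above all hairpin libraries, and this ratio was formed after the values were seen. KRT7 made up 88.2% ± 0.67 of the reads of both type II keratins with the vector and 83.8% ± 0.887 in the hairpin libraries (SD, n = 3 each).

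VIM (ENSG00000026025), the intermediate filament protein of mesenchymal cells, lies on the plus strand of chromosome 10, from 17228259 to 17237593. Its signal was 5011, 5587 and 5564 with the vector against 6030, 6825 and 6869 with the hairpin. Replicate 1 was the lowest in each group, and the spread, 6.06% and 7.18% of the mean, was far wider than the 0.214% and 0.222% that counting reads alone gives. Between same-numbered libraries the log2 difference was 0.27, 0.29 and 0.30. The mean rose from 5387 ± 326 to 6575 ± 472, with a log2 fold change of 0.29 (SE 0.0612, limma adjusted p = 0.0025). With quantile scaling it was -0.05 (limma adjusted p = 0.297). VIM took 0.547% ± 0.0277 of all reads with the vector and 0.634% ± 0.0381 in the hairpin libraries. VIM-AS1 and AL133415.1, on the opposite strand, share 641 and 619 exonic bases with it.

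**Figure D2:**
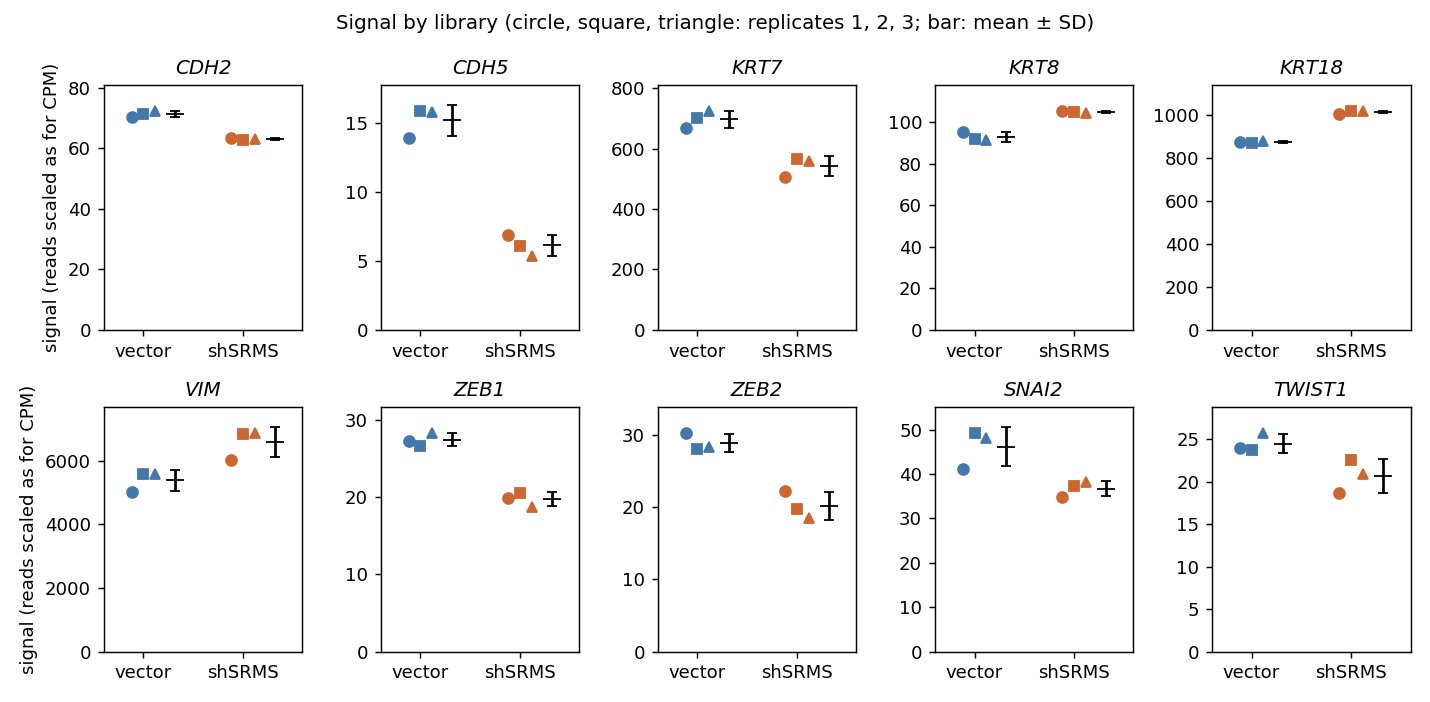
Signal of each gene (reads scaled as for CPM, axes from 0) in the 3 vector and 3 SRMS shRNA libraries; shapes are replicates 1, 2 and 3, and bars are mean ± SD. In all 10 panels the groups lie apart, with the widest gap in CDH5.

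All 4 EMT factors were lower. They are the zinc finger and homeodomain proteins ZEB1 and ZEB2, the zinc finger protein SNAI2 and the helix-loop-helix protein TWIST1. ZEB1 and ZEB2, which fell together, and VIM, which rose, have promoter windows in the RefSeq table of GRCh38.p14, where 5 of the 10 genes matched. SNAI2 was not looked up there. The windows of ZEB1, ZEB2 and VIM are shown as examples from each direction, from 250 bases before to 50 after a transcript start. E-boxes (CANNTG, the same on both strands) are in capitals. The ZEB1 window is the one nearest to the start of the transcript used here, 91 bases away, on the plus strand. The start in the VIM window is 18 bases from that of its transcript, and the start in the ZEB2 window 276 bases. The ZEB2 window lies wholly downstream of the start of the transcript used.
ZEB1 chr10:31318966-31319265: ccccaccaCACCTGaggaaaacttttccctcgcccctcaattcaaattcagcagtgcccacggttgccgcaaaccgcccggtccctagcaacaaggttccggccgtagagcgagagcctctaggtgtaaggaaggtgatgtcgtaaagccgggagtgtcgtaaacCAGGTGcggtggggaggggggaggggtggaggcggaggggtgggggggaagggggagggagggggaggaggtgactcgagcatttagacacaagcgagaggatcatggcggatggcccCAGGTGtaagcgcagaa
ZEB2 (minus strand) chr2:144520070-144520369: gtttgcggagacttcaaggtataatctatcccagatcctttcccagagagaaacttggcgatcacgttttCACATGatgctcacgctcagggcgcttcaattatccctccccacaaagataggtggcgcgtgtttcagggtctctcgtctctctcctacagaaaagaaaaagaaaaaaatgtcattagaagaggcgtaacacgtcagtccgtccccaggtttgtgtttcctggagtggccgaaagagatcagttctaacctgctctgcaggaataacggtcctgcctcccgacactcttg
VIM (plus strand) chr10:17227991-17228290: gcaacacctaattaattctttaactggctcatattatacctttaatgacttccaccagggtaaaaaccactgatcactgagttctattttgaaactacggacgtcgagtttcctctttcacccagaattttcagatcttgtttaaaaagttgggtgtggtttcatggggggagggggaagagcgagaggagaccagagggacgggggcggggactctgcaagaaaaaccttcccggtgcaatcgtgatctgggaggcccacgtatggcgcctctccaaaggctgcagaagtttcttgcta
The ZEB1 window holds 3 E-boxes, all of the form CACCTG or its complement CAGGTG, which is the form that ZEB and SNAI proteins bind, the ZEB2 window holds 1 of another form, and in the VIM window these letters do not occur. ZEB1 has further windows, and the one shown is the richest in CACCTG or CAGGTG. The window at chr10:31318167-31318466 holds 1 of that form, and the other ZEB1 windows hold 0. Of the other 2 matched genes, CDH2, which was lower, has 0 in its nearest window. The start in that window is 316 bases away, and the window lies wholly downstream of the start used here. KRT8, which was higher, has 3 of other forms in a window 23373 bases from the start used here. Among 35116 windows of the same length, 68.7% hold a CANNTG and 20.6% a CACCTG or CAGGTG. A match is a description of letters only, and no binding was measured.

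ZEB1 (ENSG00000148516) lies on chromosome 10, from 31318495 to 31529814 on the plus strand. Signals were 27.3, 26.7 and 28.3 with the vector against 19.8, 20.6 and 18.8 with the hairpin. The spread was narrow in both groups, and the mean fell from 27.4 ± 0.828 to 19.7 ± 0.901, with a log2 fold change of -0.47 (SE 0.0567, 95% interval -0.59 to -0.34, limma adjusted p = 6.88e-05). ZEB2 (ENSG00000169554), its paralogue at 144364364 to 144524583 of chromosome 2 (minus strand), had 30.3, 28.1 and 28.3 with the vector against 22.3, 19.7 and 18.5 with the hairpin. Its fall was of like size, from 28.9 ± 1.22 to 20.2 ± 1.96, with a log2 fold change of -0.51 (SE 0.0722, 95% interval -0.67 to -0.35, limma adjusted p = 0.000181).

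Both ZEB transcripts are long, at 5423 and 9541 bases beside a median of 3055 over the genes tested. Once the trend on length and GC was taken out, the log2 fold changes of ZEB1 and ZEB2 shrank to -0.22 (limma adjusted p = 0.00626) and -0.21 (limma adjusted p = 0.00974), still past the threshold. Antisense genes ZEB1-AS1 and ZEB2-AS1 share 366 and 1299 exonic bases with them.

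SNAI2 (ENSG00000019549), also called SLUG, is encoded at 48917604 to 48921740 of chromosome 8 (minus strand). Its signal was 41.2, 49.2 and 48.0 with the vector against 34.8, 37.3 and 38.1 with the hairpin. Replicate 1 was lowest on both sides, and vector replicate 1 lay nearest to the hairpin libraries. The log2 fold change was -0.32 (SE 0.069, limma adjusted p = 0.00252), and -0.16 with median scaling (limma adjusted p = 0.0709).

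TWIST1 (ENSG00000122691), at 19020991 to 19117672 of chromosome 7 (minus strand), gave the weakest call of the 10. It had 24.0, 23.7 and 25.8 with the vector against 18.6, 22.6 and 20.9 with the hairpin. The highest hairpin library lay just under the lowest vector library. Its log2 fold change was -0.24 (SE 0.0739, limma adjusted p = 0.0186). Without vector replicate 3 it was -0.20 (limma adjusted p = 0.0789), with median scaling -0.08 (limma adjusted p = 0.392) and with quantile scaling -0.10 (limma adjusted p = 0.329). Without the length and GC trend it was -0.41 (limma adjusted p = 0.000377). The antisense gene AC003986.2 shares 141 exonic bases with it.

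A ratio of 2 genes within a library does not move when a whole library is multiplied by 1 factor, as in median scaling, and 7 pairs were compared in that way. Quantile scaling and removal of the length and GC trend treat genes unequally and do move it. KRT7 over KRT18 was 0.763, 0.804 and 0.821 with the vector against 0.502, 0.554 and 0.549 with the hairpin, a log2 difference of -0.57. CDH2 over CDH5 was 5.05, 4.49 and 4.58 with the vector against 9.21, 10.3 and 11.7 with the hairpin, a log2 difference of 1.07. In both pairs the groups lay apart, with p = 0.1 by the exact two-sided permutation test, the smallest it can give, and 0.35 adjusted over the 7 pairs by Benjamini-Hochberg. Under quantile scaling and without the length and GC trend the log2 differences were -0.53 and -0.56 for KRT7 over KRT18, and 0.99 and 1.14 for CDH2 over CDH5.

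The other 5 ratios overlapped between the groups. KRT8 over KRT18 was 0.106 ± 0.00275 with the vector against 0.103 ± 0.000995 with the hairpin (exact permutation p = 0.2). VIM over KRT18 was 6.15 ± 0.369 and 6.47 ± 0.427 (exact permutation p = 0.5), and VIM over KRT8 58.1 ± 4.83 and 62.7 ± 4.7 (exact permutation p = 0.3). ZEB1 over ZEB2 was 0.95 ± 0.0497 and 0.983 ± 0.0826 (exact permutation p = 0.6), and SNAI2 over TWIST1 1.89 ± 0.182 and 1.78 ± 0.116 (exact permutation p = 0.4). Their log2 differences ran from -0.08 to 0.11. Overlap does not show that these genes moved alike. Between same-numbered libraries the log2 differences of VIM over KRT18 were 0.06, 0.06 and 0.09, those of VIM over KRT8 0.13, 0.09 and 0.11, and those of KRT8 over KRT18 -0.06, -0.03 and -0.02, each of 1 sign in 3 of 3 pairs. The pairing of replicates 2 and 3 by number is weak, and these signs were not tested. With quantile scaling the signs turned, to -0.10 for VIM over KRT18, -0.22 for VIM over KRT8 and 0.12 for KRT8 over KRT18. Without the length and GC trend KRT8 over KRT18 was 0.05, SNAI2 over TWIST1 turned to 0.11 and ZEB1 over ZEB2 to -0.02.

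**Figure D3:**
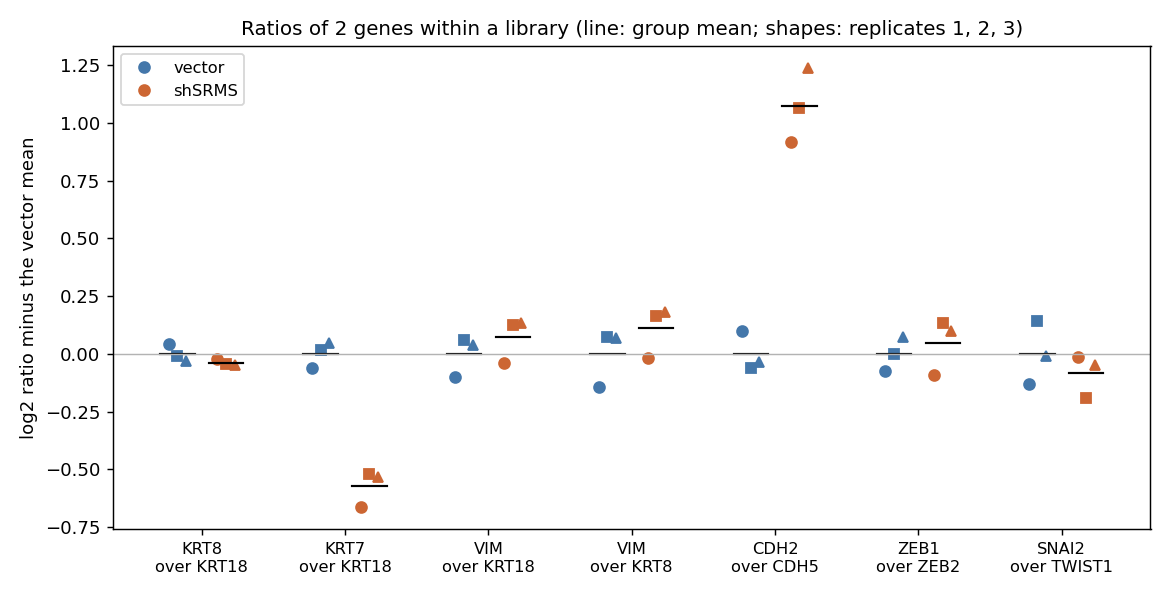
Log2 ratio of 2 genes within each library, from signal plus 0.5, less the mean of the 3 vector libraries (vertical axis); colours are the groups, shapes the replicates, and lines the group means. Of the 7 ratios, KRT7 over KRT18 and CDH2 over CDH5 separate the groups.

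Of the 10 genes, 4 were called in the same direction under all 4 of the scalings compared (as deposited, median, quantile, and without the length and GC trend), beside 32.2% of all genes. These were CDH5, KRT7, ZEB1 and ZEB2, all lower. The range of log2 fold changes was -1.25 to -1.09 for CDH5 and -0.56 to -0.20 for KRT7. It was -0.47 to -0.22 for ZEB1 and -0.51 to -0.21 for ZEB2. The background was 62.5% of genes called with median scaling, 54.6% with quantile scaling and 52% without the length and GC trend. With same-numbered libraries as pairs, all 10 were called again, beside 65.3% of all genes, and 7 were called when the length and GC trend was taken out as well, beside 60.9%. Each of the other 6 lost its call under at least 1 scaling, CDH2, SNAI2 and TWIST1 with median scaling, VIM, KRT18 and TWIST1 with quantile scaling, and CDH2, KRT8 and KRT18 without the length and GC trend. The keratin and vimentin transcripts are short, at 1562 to 2135 bases.

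**Figure D4:**
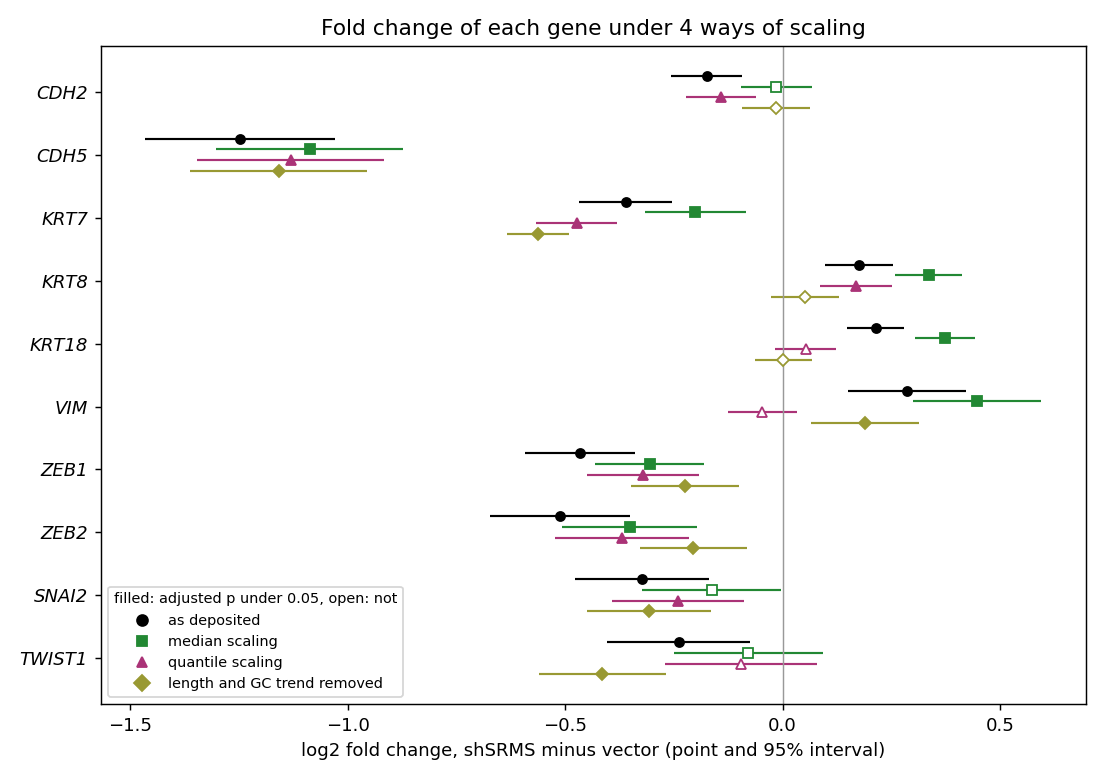
Log2 fold change (libraries labelled SRMS shRNA minus vector, horizontal axis) of each gene with its 95% interval under 4 scalings; filled points have a limma adjusted p under 0.05. CDH5, KRT7, ZEB1 and ZEB2 stay filled and below 0 throughout, while VIM runs from -0.05 to 0.45.

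Other EMT transcription factors did not share a direction. Of 12 more that were measured, 2 rose, 4 fell and 6 did not pass (median 0.10 on the log2 scale), and the counts were 5 and 2 with median scaling, 4 and 2 with quantile scaling and 5 and 3 without the length and GC trend. SNAI1, the paralogue of SNAI2, rose from 18.8 ± 1.19 to 33.4 ± 2.16 (log2 fold change 0.81, limma adjusted p = 5.48e-06). HMGA2, an architectural chromatin protein, rose from 22.2 ± 2.03 to 49.6 ± 2.96 (1.14, limma adjusted p = 1.11e-06). Both kept their direction under all 4 scalings. TCF3, which encodes the E proteins that pair with TWIST1, fell from 119 ± 5.1 to 86.5 ± 7.19, and the homeobox factor PRRX1 from 12.9 ± 0.132 to 9.56 ± 1.15.

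Of 18 genes of corepressors and regulators that work with these factors, 2 rose, 11 fell and 5 did not pass, with a median of -0.22, beside 26.6% and 30.2% of all genes higher and lower and a median of 0.0031. The counts were 3 and 8 with median scaling, and the list was not tested as a group. CTBP1, a corepressor that ZEB proteins recruit, fell from 74.7 ± 2.48 to 40.4 ± 1.67 (-0.88). SUZ12, of the Polycomb complex PRC2, fell from 88.3 ± 0.957 to 53.6 ± 1.71, and RCOR1, the CoREST scaffold of KDM1A, from 11.4 ± 0.306 to 6.60 ± 0.822. FBXO11, a ubiquitin ligase subunit that targets SNAI proteins, fell from 39.4 ± 1.94 to 25.8 ± 1.09.

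Among cadherins and their junctions the picture was mixed. Of 9 further cadherins, 4 rose, 0 fell and 5 did not pass (2 rose and 2 fell with quantile scaling), with a median of 0.31. CDH13, a cadherin anchored by glycosylphosphatidylinositol, rose from 63.7 ± 1.41 to 85.3 ± 0.814, and CDH12 from 3.39 ± 0.453 to 5.29 ± 0.16. The 2 others, CDH15 and CDH23, had mean signals under 1 in both groups. Of 11 catenins, nectins and linkers, 3 rose and 6 fell, with a median of -0.20. The counts were 4 and 4 with median scaling, and again without the length and GC trend. CTNND1, p120-catenin, which binds the tails of classical cadherins, fell from 78.7 ± 3.88 to 63.1 ± 2.48, AFDN, afadin, from 55.7 ± 2.43 to 42.9 ± 1.32 and PKP4 from 49.2 ± 0.772 to 37.1 ± 0.639. CTNND1 was not called without the length and GC trend (limma adjusted p = 0.0511). NECTIN2 rose from 127 ± 3.1 to 168 ± 10.9.

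Of 22 epithelial surface and tight junction genes, 11 rose, 3 fell and 8 did not pass, with a median of 0.24, beside 26.6% and 30.2% of all genes. The counts were 13 and 2 with median scaling, where 6254 and 2510 of all 14029 genes were higher and lower, and 9 and 3 with quantile scaling. In 8 of the 11 that rose, the mean signal in the higher group was under 5, as for SPINT2, a serine protease inhibitor, which went from 0.446 ± 0.0932 to 1.72 ± 0.226. PARD3, a polarity protein, rose from 29.7 ± 0.173 to 39.1 ± 1.38. The scaffolds TJP1, known as ZO-1, and PALS1 fell from 38.5 ± 0.613 to 23.3 ± 0.923 and from 31.1 ± 0.914 to 18.2 ± 0.477. Of 12 epithelial regulators, 5 rose and 1 fell, with a median of 0.23 (6 and 1 with median scaling, 2 and 1 with quantile scaling, 5 and 3 without the length and GC trend). KLF4 rose from 8.71 ± 0.244 to 11.7 ± 0.809, while OVOL1 and ELF3 rose to mean signals of only 0.3 and 0.277, and FOXA1 fell from 4.20 ± 0.162 to 2.92 ± 0.077. Of 5 desmosome genes, 2 rose and 2 fell, with a median of -0.03 (1 and 2 with quantile scaling, 2 and 0 without the length and GC trend), and PERP rose from 57.6 ± 0.715 to 77.1 ± 0.419. The desmosomal cadherin genes DSG2 and DSC2 fell from 9.91 ± 0.161 to 7.63 ± 0.697 and from 1.18 ± 0.0372 to 0.701 ± 0.0655, and neither was called without the length and GC trend (limma adjusted p = 0.216 and 0.234), nor DSG2 with median scaling (limma adjusted p = 0.0527). DSP, desmoplakin, rose from 0.126 ± 0.0508 to only 0.475 ± 0.249.

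Mesenchymal effectors moved both ways. Of 37, 16 rose, 10 fell and 11 did not pass, with a median of 0.03, beside 26.6% and 30.2% of all genes higher and lower. The counts were 21 and 5 with median scaling, where 6254 and 2510 of all 14029 genes were higher and lower. The list median was then 0.19, beside 0.16 over all genes. With quantile scaling the counts were 13 and 12. SPARC, a matrix-binding glycoprotein, rose from 186 ± 8.39 to 288 ± 4.46. COL1A1, a chain of type I collagen, fell from 1238 ± 1.77 to 816 ± 3.24, and the integrin subunits ITGA5 and ITGAV from 141 ± 2.22 to 96.0 ± 0.197 and from 52.2 ± 2.3 to 30.3 ± 2.12. Of 17 further intermediate filament genes and linkers, 3 rose, 5 fell and 9 did not pass, with a median of -0.02 (7 and 4 with median scaling, 2 and 7 with quantile scaling, 5 and 4 without the length and GC trend). NEFL, a neurofilament subunit, rose from 81.6 ± 4.1 to 119 ± 1.61. The synemin gene SYNM, whose product joins vimentin filaments, fell from 27.1 ± 0.984 to 18.9 ± 3.19. SYNC and the lamin gene LMNB1 fell from 12.7 ± 0.645 to 8.42 ± 0.403 and from 82.8 ± 5.25 to 56.5 ± 2.86.

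Of the 13 type I and 20 type II keratins listed, 4 besides the 3 described were measured. KRT10, of type I, rose from 39.7 ± 3.56 to 52.3 ± 7.42, and KRT15 did not pass the test, at 2.57 ± 0.271 and 2.97 ± 0.375. Of type II, KRT79 rose from 2.65 ± 0.359 to 4.69 ± 0.356 and KRT80 fell from 20.9 ± 1.28 to 14.2 ± 1.99.

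**Figure D5:**
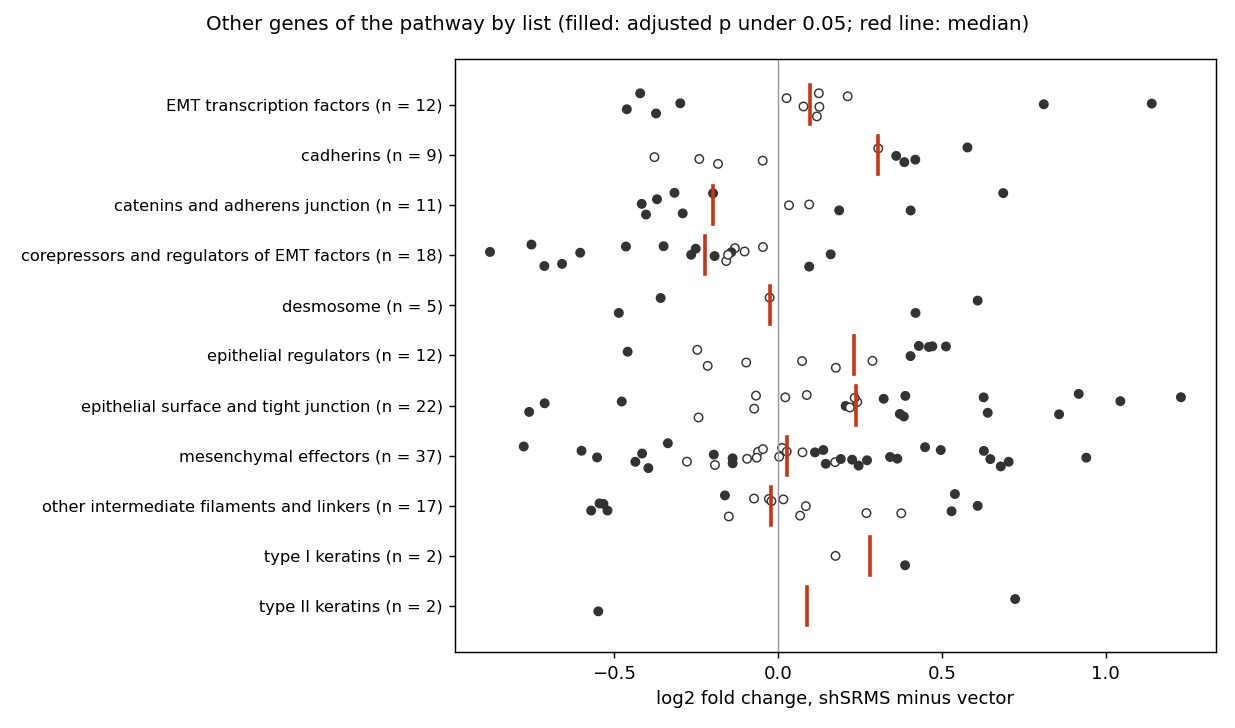
Log2 fold change (horizontal axis) of the other genes of each list, with the number measured; each point is a gene, filled where the limma adjusted p was under 0.05, and red lines are medians. Corepressors lie mostly below 0, with a median of -0.22, and epithelial surface genes mostly above, with a median of 0.24.

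The hexamer CGTGTC is shown because it had been picked out from these same fold changes, so nothing rests on it. It lies in the coding sequence or 3′ untranslated region of 25.5% of the genes tested, which had a median log2 fold change of -0.08 against 0.03 for the rest. Among the 10 genes, 4 hold it, all in coding sequence. Sites are given with their positions in the transcript used, counted from 1, and the hexamer in capitals.
CDH2 1348 to 1353: gaggtacagaatCGTGTCtcaggctccaag
CDH2 1873 to 1878: gtcaactgcaacCGTGTCtgttacagttat
VIM 428 to 433: gtccaccaggtcCGTGTCctcgtcctccta
TWIST1 363 to 368: gatgatgcaggaCGTGTCcagctcgccagt
KRT18 351 to 356: ttcccggatctcCGTGTCccgctccaccag
Of these 4, CDH2 and TWIST1 were lower and VIM and KRT18 higher. CDH5, KRT7, ZEB1 and ZEB2, called lower under all 4 scalings, do not hold it.

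Markers of the ovarian carcinoma lineage were low apart from KRT7. PAX8 ran from 0.0871 to 0.365 over all libraries, ESR1 from 0.032 to 0.167 and CLDN4 from 0.175 to 0.577, and WT1 fell from 2.84 ± 0.331 to 1.42 ± 0.07. Of the 14 markers listed, 5 were measured, and CDH1 and EPCAM, the defining epithelial genes, were not among those 5. Endothelial markers bear on CDH5. Of 15, 7 were measured, CDH5 among them, and their summed signal was 283 to 287 with the vector and 190 to 200 in the hairpin libraries, most of it from TIE1, an endothelial receptor tyrosine kinase. TIE1 fell from 240 ± 4.96 to 156 ± 3.32 (log2 fold change -0.62). PECAM1 was near 0, at 0.167 to 0.24 with the vector and 0.256 to 0.511 in the others, and KDR ran from 0.256 to 0.949. ROBO4 did not pass, at 20.4 ± 1.44 and 18.1 ± 1.07, while ESAM and EGFL7 rose, from 7.13 ± 0.25 to 10.5 ± 0.86 and from 1.08 ± 0.301 to 2.60 ± 0.341.

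Of 7 fibroblast markers measured, 2 rose and 3 fell (2 and 2 under each of the other scalings), with sums of 1375 to 1382 and 969 to 978 that come mostly from COL1A1, and COL3A1 had reads in 1 library only. Of 7 leukocyte markers, 3 rose and 1 fell (5 and 0 with median scaling), with sums of 52.0 to 54.4 and 62.7 to 67.1 that do not overlap. Those sums come mostly from CD68, which rose from 50.2 ± 1.79 to 59.0 ± 2.38. CD68 was not called without the length and GC trend (limma adjusted p = 0.0703). CD14 went from 0.879 ± 0.197 to 3.24 ± 0.37, and HLA-DRA, the 1 that fell, from 1.56 ± 0.207 to 1.15 ± 0.113. Of 4 mesothelial markers, 2 rose and 1 fell (3 and 1 with median scaling), with sums of 4.25 to 5.05 and 5.21 to 5.84. Whether other cells had a part in the changes of CDH5, VIM or the keratins was not tested.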

How the data were processed

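Reads of 6 libraries, 3 for each construct in cisplatin, were made into 1 table by the authors. The build GRCh38 and the tools edgeR, StringTie, HISAT2, cutadapt and FastQC are listed, per the submitters' processing notes, without versions; strand setting and filters are not stated in these sources. The file's name says log CPM, but the authors' deposited values are a linear signal, each read count over a library's effective size. At least 99.99% of values per library came out whole within 0.1 of a read. Of 14042 rows, 13 Y copies of pseudoautosomal genes were left out, and 14007 of 14029 identifiers had a symbol. Coordinates and transcripts are from GENCODE 29 (coding, principal where marked, longest).

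Tests were limma 3.58.1 (R 4.3.3) with a mean-variance trend on log2(signal + 0.5), all 14029 genes, Benjamini-Hochberg at 0.05; fold changes on that scale understate low genes. edgeR 4.0.16 and DESeq2 1.42.0 were run on the recovered reads as alternatives, and the limma and edgeR fits were tested on simulated data. The trend with length and GC content was removed from each library by splines. Across genes, same-numbered libraries deviated together from their group means (r = 0.309, 0.106 and 0.12). With a limit of 0.1 the numbers were taken as pairs, but only in the replicate block and in differences between same-numbered libraries. The main limma fit, its other alternatives and the permutation tests were unpaired. Replicates 2 and 3 of different groups correlated as much, at 0.113 and 0.114, so the pairing of 2 and 3 by number is weak. The 10 genes and 16 lists were chosen with earlier results of these data known. All 10 are named, with up to 4 of the smallest adjusted p from each pathway list; any measured gene of the marker lists could be named, and KRT15 was named after its values were seen. The values of 1 list gene are not reported here.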

Additional observations from a re-analysis of the deposited data

How the results depend on the processing

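With median scaling 6254 genes were higher and 2510 lower, against 3736 and 4233 as deposited, and 4 of the 10 genes were lower, against 7. With quantile scaling 1 of the 10 was higher, against 3, and VIM changed sign (-0.04652). Without the length and GC trend 1 was higher, with or without the replicate block. With log2 fold changes limited to 1 or more in size, there were 105 and 187 genes higher and lower, and 0 and 1 of the 10 (CDH5). The replicate block alone changed no call among the 10 (3 higher, 7 lower; CDH5 at -1.25, VIM at 0.29) and gave 4349 and 4805 genes, and edgeR and DESeq2 kept all 10 calls. Leaving out single libraries ended 1 call, TWIST1 without vector replicate 3, and gave 3195 to 3891 genes higher and 3697 to 4433 lower. CDH5 was called under 21 of 21 alternatives. Under 9 alternatives without rescaling the 7 ratios moved by no more than the SD pooled over both groups. Of 2 rescalings, chosen after seeing the data, quantile scaling moved KRT8 over KRT18 to 0.1162, VIM over KRT18 to -0.09947 and VIM over KRT8 to -0.2157 by more than that. Removing the length and GC trend moved KRT8 over KRT18 to 0.04845, VIM over KRT18 to 0.1877 and SNAI2 over TWIST1 to 0.1065. Counting limits CDH5 most, with a counting error of 7.25% in the hairpin libraries.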
